A study of Homo sapiens with 6 samples.

Results

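The 10 genes EZH1, EZH2, SUZ12, EED, JARID2, RING1, RNF2, BMI1, CBX2 and CBX8 encode subunits of the Polycomb repressive complexes. They were taken by symbol from the 60651 genes counted in each library, and all 10 passed the filter on low counts that left 29086 genes for testing. RNA was measured in SK-N-AS, an established human neuroblastoma cell line. Both groups carried the same construct, a tetracycline-inducible MYCN expression system with the tetracycline repressor, and were kept as single clones under G418 and blasticidin. The 3 control libraries are labelled ETOH, and the 3 MYCN-induced libraries came from cells given tetracycline for 120 h, or 5 days. No group without the repressor system and no line with amplified MYCN was part of this comparison. Total RNA was depleted of ribosomal RNA and sequenced as read pairs, and between 64500589 and 102249336 pairs were counted on exons per library.

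Polycomb proteins keep developmental genes silent. Polycomb repressive complex 2 (PRC2) methylates histone H3 at lysine K27 through EZH2 or its paralog EZH1, which need SUZ12 and EED for activity, and JARID2 helps bring the complex to chromatin. Polycomb repressive complex 1 (PRC1) ubiquitinates histone H2A through RING1 or RNF2, each paired with a PCGF subunit such as BMI1, and its canonical form reads the PRC2 mark through a chromodomain protein such as CBX2 or CBX8. In neuroblastoma, EZH2 is known as a partner of MYCN and as a repressor of differentiation genes.

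None of the 10 genes differed between MYCN-induced and control libraries at an adjusted p under 0.05. Over all tested genes the share was 3.4% (990 of 29086, 298 higher and 692 lower), and for 10 genes a count of 0 is near that share. Fold changes of the 10 ran from -0.29 to 0.17 on the log2 scale, with a median of 0.03 and 5 of 10 above 0. EZH1 was lower in every MYCN-induced library than in any control and JARID2 was higher in every one, and the groups of the other 8 genes overlapped. A separation of the groups was seen for 26.3% of all tested genes (7639 of 29086). Under DESeq2 the count was also 0 of 10, against 7.23% of the genes with an adjusted p there. At an unadjusted p under 0.05 only EZH1 passed, against 18.7% of all genes. MYCN itself had 30.3, 35.5 and 32.4 CPM (counts scaled to the normalised size of the library) in the controls and 211, 221 and 199 in the induced libraries. Its log2 fold change was 2.68 (SE 0.085, adjusted p = 4.155e-05).

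On GRCh38 the deposited gene models put EZH2 at chr7:148807383-148884321 on the minus strand, EZH1 at chr17:42700275-42745049 on the minus strand and BMI1 at chr10:22321099-22331484 on the plus strand. With EZH1, 4 members are on chromosome 17. CBX2 (chr17:79778148-79787983, plus strand) and CBX8 (chr17:79792132-79801683, minus strand) are neighbours, with 4148 bases between their gene models. Promoter sequence from RefSeq (GRCh38.p14) was at hand for 8 of the 10 members, in 11 windows of the 250 bases before a start, and CBX2 and CBX8 had no entry. The windows were searched on both strands for the E-box CACGTG, the core site bound by MYC family proteins, for the E2F letters TTTCCCGC, TTTCGCGC, TTTGCCGC and TTTGGCGC, and for CCAAT, to which NF-Y binds. The E-box was in 1 of the 11 windows, that of BMI1, and in 6.34% of 35116 promoters of the same length. E2F letters were in 2 windows, those of EZH1 and SUZ12, and in 2.79% of all promoters. CCAAT was in 4 windows, with 4 copies in the EZH2 window, and in 32% of all promoters. The letters mark matches only and no binding was measured. The printed windows are shown because they hold the E-box, the E2F letters of the gene with the largest fold change, and the run of CCAAT boxes, with the matched letters in capitals on the strand of the gene.

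BMI1, chr10:22320849-22321098, plus strand: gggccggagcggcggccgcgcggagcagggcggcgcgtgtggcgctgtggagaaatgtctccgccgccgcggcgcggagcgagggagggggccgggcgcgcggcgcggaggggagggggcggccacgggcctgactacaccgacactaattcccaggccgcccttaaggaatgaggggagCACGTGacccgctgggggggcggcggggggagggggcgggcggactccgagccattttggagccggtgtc
EZH1, chr17:42745041-42745290, minus strand: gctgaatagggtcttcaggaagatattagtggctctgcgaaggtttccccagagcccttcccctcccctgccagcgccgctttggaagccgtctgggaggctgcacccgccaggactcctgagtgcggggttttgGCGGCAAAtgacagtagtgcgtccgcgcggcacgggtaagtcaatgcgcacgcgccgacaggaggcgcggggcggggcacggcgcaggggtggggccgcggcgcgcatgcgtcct
EZH2, chr7:148884292-148884541, minus strand: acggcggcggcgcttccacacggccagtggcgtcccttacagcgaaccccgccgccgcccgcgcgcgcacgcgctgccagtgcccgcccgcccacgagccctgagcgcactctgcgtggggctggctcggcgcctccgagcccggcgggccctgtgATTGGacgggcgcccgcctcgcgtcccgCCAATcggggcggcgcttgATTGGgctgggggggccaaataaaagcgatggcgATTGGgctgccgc

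Expression levels of the members were compared as CPM per kilobase of exon. The length was that of all annotated exons of a gene, 6807 bases for EED and 4522 for EZH2. The order thus depends on the gene models. JARID2 was highest, with a mean of 27.3 over the 6 libraries and a range of 24.8 to 31.4. CBX2 followed at 22.1 (17.8 to 24.7) and EZH2 at 19.4 (15.8 to 21.3), and the ranges of these 2 overlapped. RNF2, the main E3 ligase of PRC1, came next at 11.4 (10.5 to 12.4), and BMI1 lay at 9.86 (9.13 to 11.5). The level of BMI1 leaves out pairs on shared exons that were given to COMMD3-BMI1, a readthrough gene that overlaps it. Below these came RING1 at 6.87, SUZ12 at 6.14, EZH1 at 4.77 and CBX8 at 3.88, and in this run of genes each overlapped with its neighbour. EED was lowest at 1.57 (1.20 to 1.82), below every library of the other 9 genes. In rank among all tested genes, JARID2 stood at percentile 95.4 and EED at percentile 44.9. The 2 partners that the PRC2 enzymes need, SUZ12 and EED, were both lower per kilobase than EZH2 in every library.

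**Figure D1:**
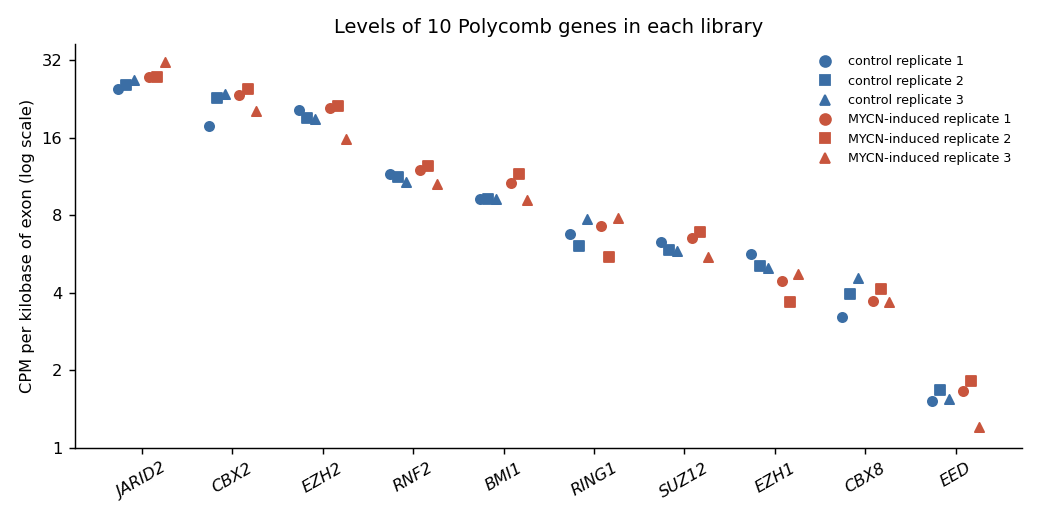
Levels of the 10 genes in CPM per kilobase of exon on a log scale, with 1 point per library, blue for control and red for MYCN-induced, and the marker shape giving the replicate. JARID2 is at the top with a mean of 27.3, EED at the bottom with 1.57, and most genes have both colours intermixed.

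EZH2, the more active methyltransferase of PRC2 and typical of dividing cells, had 92.8, 86.2 and 85.7 CPM in control replicates 1, 2 and 3 and 94.4, 96.3 and 71.3 CPM in the MYCN-induced ones. Induced replicates 1 and 2 were above every control and replicate 3 was below every control. The log2 fold change was -0.02 (SE 0.116), with a 95% interval from -0.28 to 0.25, or 0.821-fold to 1.19-fold, and an adjusted p of 0.9641. Its paralog EZH1, which is more prominent in cells that divide little, had 39.7, 35.5 and 34.8 CPM in the controls and 31.1, 25.7 and 33.1 CPM after induction. All 3 induced libraries were below all 3 controls. The log2 fold change was -0.29 (SE 0.109, unadjusted p = 0.02971, adjusted p = 0.2085), and its 95% interval ran from -0.54 to -0.04. Leaving out 1 library at a time gave -0.36 to -0.19.

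The ratio of EZH2 to EZH1, per length of exon, was 3.61, 3.76 and 3.81 in the controls and 4.69, 5.79 and 3.33 in the induced libraries. It was higher than in any control in 2 induced libraries and lower in the third. EZH2 made up 78.8% ± 0.459 (SD, n = 3) of the pair in control cells and 81.5% ± 4.26 (SD, n = 3) in induced cells. A two-sided exact permutation test of the log2 ratio gave p = 0.4, or 0.533 adjusted over the 4 paralog ratios tested, and the smallest p that 3 against 3 libraries allow is 0.1.

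SUZ12, the scaffold of PRC2, had 41.1, 38.5 and 37.9 CPM in the controls and 42.8, 45.0 and 36.0 CPM after induction. EED, which binds the methylated histone tail and stimulates the enzyme, had 10.3, 11.4 and 10.6 CPM in the controls against 11.3, 12.4 and 8.17 CPM. In both genes induced replicate 2 was the highest and induced replicate 3 the lowest of the 6 libraries. Log2 fold changes were 0.08 (SE 0.096, adjusted p = 0.7355, 95% interval -0.15 to 0.30) for SUZ12 and -0.02 (SE 0.155, adjusted p = 0.9659, 95% interval -0.38 to 0.34) for EED. SUZ12 has a partial copy, SUZ12P1, to which 1063 to 1838 counts per library were assigned. Only unique alignments were counted, so reads that fit both genes equally would be missing, and the SUZ12 counts carry that uncertainty.

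JARID2, the accessory subunit, had 155, 160 and 168 CPM in control replicates 1 to 3. After induction the libraries had 172, 171 and 196 CPM, all above the controls. Its log2 fold change of 0.16 (SE 0.076) did not pass the test (unadjusted p = 0.06805, adjusted p = 0.3088), and the 95% interval ran from -0.02 to 0.34. The highest value was that of induced replicate 3, in which EZH2, SUZ12 and EED were lowest.

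Of the PRC1 ligases, RNF2 (RING1B) had 45.2, 43.8 and 42.2 CPM in the controls and 46.9, 48.6 and 41.1 CPM in the induced libraries. RING1 had 12.3, 11.1 and 14.1 CPM in the controls and 13.2, 9.98 and 14.2 CPM in the induced libraries. Neither gene separated the groups, and RING1 was lowest in induced replicate 2, the library where RNF2 was highest. Log2 fold changes were 0.06 (SE 0.082, adjusted p = 0.7702) for RNF2 and -0.01 (SE 0.153, adjusted p = 0.9921) for RING1, with 95% intervals from -0.13 to 0.25 and from -0.36 to 0.35. Per length, RNF2 stood at 1.39 to 1.84 times RING1 in the controls and 1.35 to 2.26 times in the induced libraries (exact permutation p = 1.0).

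BMI1 (PCGF4), which stimulates the ligases in canonical PRC1 and is known for holding down the CDKN2A locus, had 40.8, 40.8 and 40.6 CPM in the controls. The induced libraries had 47.0, 50.7 and 40.1 CPM. Controls lay within 0.008 of each other on the log2 scale, the narrowest control range among the members, and induced replicates 1 and 2 were above them while replicate 3 was just below. Over all 6 libraries the log2 fold change was 0.17 (SE 0.093, 95% interval -0.04 to 0.39, adjusted p = 0.3726). Without induced replicate 3 it was 0.27 (SE 0.056) and passed the test (adjusted p = 0.03415), the only member to do so. In that fit 2329 of 29086 genes were called in either direction, with 1058 higher (3.64% of all genes) and 1271 lower. BMI1 shares 1000 exon bases, 22.8% of its exon length, with the readthrough gene COMMD3-BMI1 on the same strand, and pairs there were split between them. The readthrough gene had 32.7, 33.9 and 33.1 CPM in the controls and 37.9, 39.8 and 36.9 CPM after induction, with no overlap between groups. Its log2 fold change was 0.20 (SE 0.068, adjusted p = 0.1714), and with the counts of both genes added together the value was 0.19 (adjusted p = 0.2379). Counts of the readthrough gene also come from exons that BMI1 does not share. The ratio of BMI1 to its paralog PCGF2 (MEL18) was 2.19 to 2.47 in the controls and 2.26 to 3.004 in the induced libraries (exact permutation p = 0.2). Among the 6 PCGF genes, BMI1 held 20.0% ± 0.460 (SD, n = 3) of the summed level per kilobase in controls and 20.5% ± 2.701 (SD, n = 3) in induced cells. Counts of the readthrough gene were not added to BMI1 in this ratio and share.

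CBX2, a chromodomain subunit that also compacts chromatin, had 101, 130 and 134 CPM in the controls and 133, 140 and 116 CPM in the induced libraries. CBX8 had 13.2, 16.4 and 18.9 CPM in the controls and 15.3, 17.1 and 15.2 CPM after induction. Both neighbours were lowest in control replicate 1, as were 17.6% of all tested genes, and their control ranges of 0.405 and 0.511 on the log2 scale were the widest among the 10. These 2 genes and RING1, the next widest at 0.347, had the highest transcript GC content of the members, 59.6% to 60.7%, against 38.2% to 50.8% for the other 7. The range of RING1 did not come from control replicate 1, which lay between control replicates 2 and 3 for that gene. Across 29002 genes, the level in control 1 relative to the other controls went with GC content at a Pearson r of -0.44, a description over genes that share these libraries, and its part in the CBX values was not tested beyond a fit with GC correction, which gave 0.10 for CBX2 and -0.01 for CBX8. Uncorrected log2 fold changes were 0.09 (SE 0.121, adjusted p = 0.7481, 95% interval -0.19 to 0.37) and -0.02 (SE 0.136, adjusted p = 0.9514, 95% interval -0.34 to 0.29).

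The ratio of CBX2 to CBX8, in which a scaling shared by both genes cancels, was 5.56, 5.76 and 5.16 in the controls and 6.29, 5.96 and 5.52 in the induced libraries (exact permutation p = 0.3, adjusted 0.533).

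**Figure D2:**
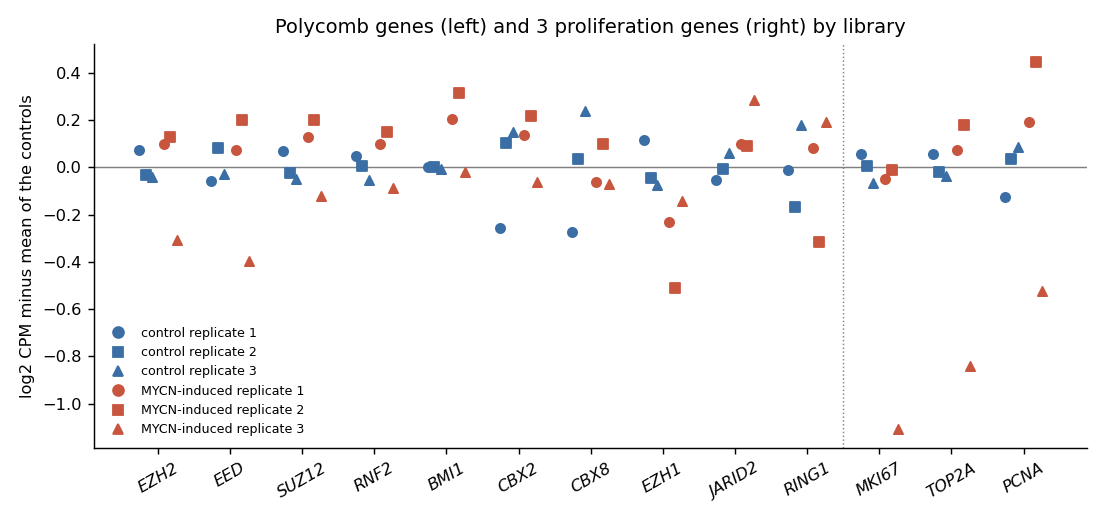
Log2 CPM of each library minus the mean of the controls, for the 10 genes and, right of the dotted line, MKI67, TOP2A and PCNA, with blue for control and red for MYCN-induced. The red triangles, induced replicate 3, are the lowest points for EZH2, EED, SUZ12, RNF2 and BMI1 and for the 3 proliferation genes.

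Induced replicate 3 stood apart from the other libraries, with a score of 72.5 on the first principal component, an axis that took up 44.5% of the variance. Induced replicates 1 and 2 scored 14.9 and 13.1, and the controls between -41.5 and -27.2. Of the members 5, EZH2, SUZ12, EED, RNF2 and BMI1, were lowest in this library, as were 27% of all tested genes. JARID2 and RING1 were highest in it, as were 25% of all genes. Relative to the mean of induced replicates 1 and 2, EED was lower by a log2 difference of -0.53 and EZH2 by -0.42, while RING1 was at 0.31 and EZH1 at 0.23. MKI67, a marker of cycling cells, had 644, 620 and 591 CPM in the controls and 598, 614 and 287 CPM in the induced libraries, so its level in induced replicate 3 was less than that of every other library. PCNA, the replication clamp, had 83.4, 93.3 and 96.7 CPM in the controls and 104, 124 and 63.3 CPM after induction. Of 12 proliferation genes, 9 were lowest in induced replicate 3, and their summed level was 1461 CPM there against 2102 to 2315 CPM in the other 5 libraries. The part of these genes in the Polycomb values was not tested. In bulk RNA, fewer cells in a state and less RNA per cell cannot be told apart.

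Without induced replicate 3 the estimates of EZH2, SUZ12, EED and RNF2 were higher and that of EZH1 was lower. EZH2 then had a log2 fold change of 0.12 (SE 0.050, adjusted p = 0.1937), SUZ12 of 0.17 (SE 0.057, adjusted p = 0.1137) and EED of 0.15 (SE 0.089, adjusted p = 0.3593). RNF2 was at 0.13 (SE 0.053, adjusted p = 0.1732), and none of these 4 passed the test. EZH1 was at -0.36 (SE 0.097, adjusted p = 0.071). EZH2 also turned positive without control replicate 1 (0.02), and EED without control replicate 2 (0.02).

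**Figure D3:**
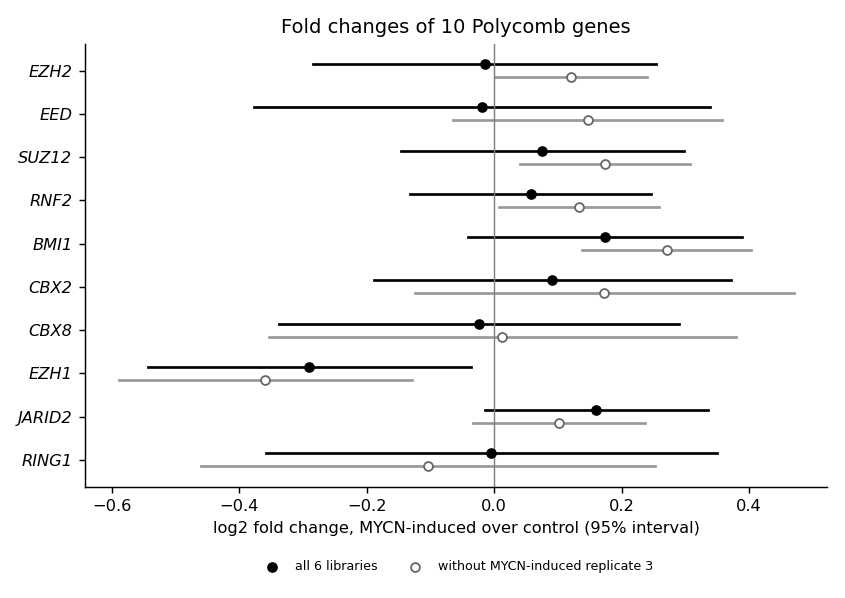
Log2 fold change, MYCN-induced over control, with its 95% interval for each of the 10 genes, with all 6 libraries (black) and without MYCN-induced replicate 3 (grey, open points). With all libraries, the interval of EZH1 alone lies wholly below 0, from -0.54 to -0.04, and without replicate 3 the intervals of EZH2, SUZ12, RNF2 and BMI1 lie above 0, of which BMI1 passed the adjusted test.

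Genes whose log2 CPM followed EZH2 most closely over the 6 libraries, among 10157 genes that averaged 10 CPM or more, were RBL1, PPP6R3, POU2F1, SRSF12 and TUBD1. RBL1 encodes the pocket protein p107, PPP6R3 a regulatory subunit of a protein phosphatase, POU2F1 the transcription factor OCT1, SRSF12 a splicing factor and TUBD1 delta-tubulin. Pearson r was 0.999 for RBL1 and 0.998 for the other 4, and without induced replicates 2 and 3, the libraries farthest from the EZH2 median, it was 0.984 to 0.998. Among the members, SUZ12 had r = 0.90 with EZH2 (0.98 without those libraries) and RNF2 had 0.88 (0.93). EED had 0.90, which fell to -0.02 without those libraries, and JARID2 had -0.71, which was 0.055 without them. With SUZ12 at rank 596 of 10157, likeness of this order was common, and the points share depth and library.

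The other genes of the pathway were 55 subunits and partners in PRC2, PRC1, the deubiquitinase PR-DUB, the H3K27 demethylases and the COMPASS methyltransferases, of which 53 were tested. None passed the test in either direction, 37 of 53 were above 0 against 14524 of the 29086 tested genes, and the median log2 fold change was 0.05 against 0.0 over all genes. DESeq2 called 1, FOXK1, a forkhead factor that binds PR-DUB, as higher, against 7.23% of all genes called there in either direction. With edgeR its log2 fold change was 0.54 (SE 0.132, adjusted p = 0.07623) and its groups did not overlap. No overlap between groups was seen in 10 of the 53, 4 higher and 6 lower, against 26.3% of all tested genes. At an unadjusted p under 0.05 there were 5 higher and 5 lower, against 18.7% of all genes. EPOP and EZHIP, proteins that bind PRC2, were not tested, and EPOP had 0 counts in every library, which allows up to 3 counts per library.

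For most lists the gene with the largest change among those with a mean of at least 1 CPM is given here, and in the PRC2 core and the PRC1 ligases these were the members EZH1 and RNF2. PHF1, which helps PRC2 bind chromatin, was at a log2 fold change of -0.23 (SE 0.142, adjusted p = 0.4478). PCGF6, of variant PRC1, was at 0.27 (SE 0.15, adjusted p = 0.3981), and BCORL1, a corepressor in variant PRC1, at -0.24 (SE 0.082, adjusted p = 0.1717). ASXL3, a cofactor of PR-DUB, had 3.45, 3.15 and 2.97 CPM in the controls and 2.08, 2.53 and 1.03 CPM after induction. All induced libraries of ASXL3 were lower, with a log2 fold change of -0.76 (SE 0.287, adjusted p = 0.2078). KDM6B (JMJD3), which removes the PRC2 mark, was at 0.44 (SE 0.196, adjusted p = 0.2812) and SETD1B, a COMPASS methyltransferase, at 0.20 (SE 0.116, adjusted p = 0.4266).

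**Figure D4:**
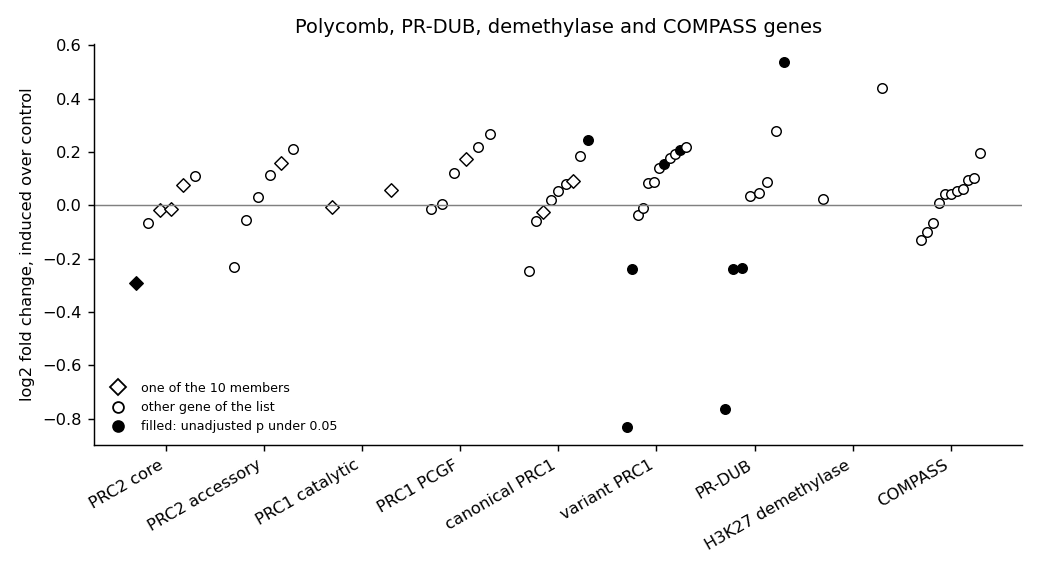
Log2 fold change, MYCN-induced over control, for the genes reported here from the Polycomb, PR-DUB, demethylase and COMPASS lists, with diamonds for the 10 members, circles for other genes and filled symbols for an unadjusted p under 0.05. Most points lie near 0, the highest point is FOXK1 at 0.54, and none passed the adjusted test.

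RNA of genes known to be silenced by EZH2 in neuroblastoma was looked at next. No histone mark or binding was measured, and the part of EZH2 in these values was not tested. CLU, which encodes the chaperone clusterin, had 17.3, 16.2 and 15.9 CPM in the controls and 10.1, 8.52 and 12.3 CPM after induction. All induced libraries were lower and CLU fell by 0.68 on the log2 scale (SE 0.137, adjusted p = 0.0422). That call was lost in 5 of the 6 fits that left out 1 library, all but the fit without induced replicate 3, with adjusted p from 0.07519 to 0.1763. Those 5 fits called 113 to 477 genes in all, against 990 with every library. With DESeq2 the adjusted p of CLU was 0.0008611, and its log2 fold change stayed between -0.816 and -0.557 in all alternatives run. NGFR, the low-affinity neurotrophin receptor, had 5.04, 6.16 and 5.78 CPM in the controls and 2.37, 2.75 and 0.731 CPM after induction. The groups did not overlap, and its log2 fold change of -1.54 (SE 0.397) had an adjusted p of 0.08577 with edgeR and of 0.002124 with DESeq2. Without induced replicate 3, where NGFR was lowest, the value was -1.13 (adjusted p = 0.006826). CASZ1, a zinc finger factor of neural differentiation, was at 0.06 (SE 0.256, adjusted p = 0.9351), and RUNX3 had too few counts to test.

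Cell cycle inhibitors held down by Polycomb in other cells were looked at in the same way, and the part of Polycomb in their values was not tested. CDKN1A (p21) had 10.8, 11.7 and 11.2 CPM in the controls and 5.09, 4.94 and 7.87 CPM after induction. It fell by 0.91 on the log2 scale (SE 0.182, adjusted p = 0.04114), and this call was lost in the same 5 fits, with adjusted p from 0.09584 to 0.1797. With DESeq2 the adjusted p of CDKN1A was 0.000312, and its log2 fold change stayed between -1.155 and -0.789 in all alternatives run. CDKN2A, the locus of p16 and ARF, was at 0.22 (SE 0.131, adjusted p = 0.4382). CDKN2B (p15) had 7.90, 7.28 and 7.20 CPM in the controls and 8.85, 7.95 and 12.9 CPM after induction, with no overlap and a log2 fold change of 0.41 (SE 0.180, adjusted p = 0.2732). CDKN1C had too few counts to test.

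**Figure D5:**
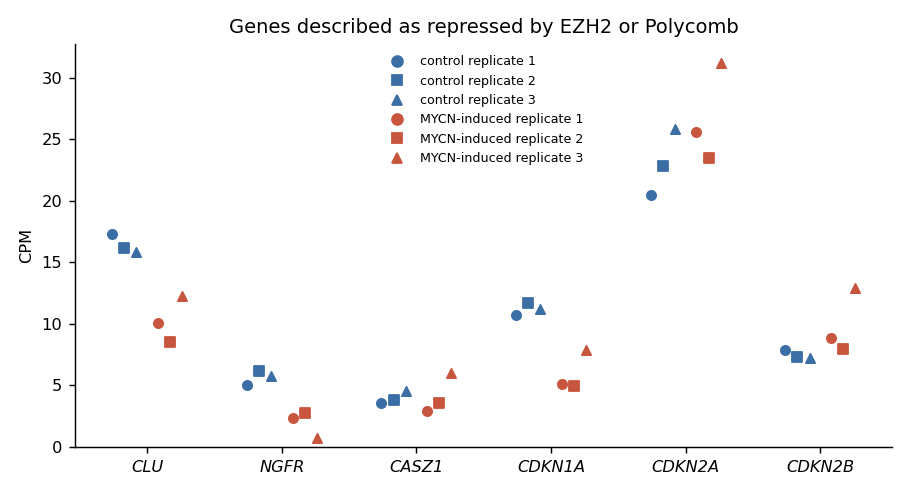
CPM in each library for CLU, NGFR and CASZ1, and for the cell cycle inhibitors CDKN1A, CDKN2A and CDKN2B, with blue for control and red for MYCN-induced. Every red point of CLU, NGFR and CDKN1A is below every blue point, and every red point of CDKN2B is above.

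The cells carried markers of both adrenergic and mesenchymal neuroblastoma. Of the adrenergic markers, HAND2 was at 349 to 559 CPM and GATA3 at 99.9 to 144 CPM. TH, the first enzyme of catecholamine synthesis, was at 0.665 to 1.58 CPM, and PHOX2A and DBH were at 5.92 to 18.3 and 3.23 to 9.20 CPM. Of the mesenchymal markers, FN1 (fibronectin) was at 28.4 to 60.5 CPM and YAP1 at 43.0 to 56.6 CPM. SNAI2 was at 9.83 to 14.6 CPM and PRRX1 at 4.23 to 10.55 CPM. Of the 8 adrenergic markers tested 1 passed the test, against 3.4% of all tested genes (990 of 29086), and 3 had fold changes above 0. The 1 that passed was CHGA (chromogranin A), which fell by 1.21 on the log2 scale (SE 0.258, adjusted p = 0.04924). ISL1 had a log2 fold change of -0.55 (SE 0.123, adjusted p = 0.05616) with no overlap between groups. Of the 5 mesenchymal markers tested 1 passed, against the same 3.4% of all genes, and 4 had fold changes above 0. The 1 that passed was FN1, which fell by 0.705 on that scale (SE 0.130, adjusted p = 0.033). VIM was at 360 to 475 CPM, with a log2 fold change of 0.30 (SE 0.067, adjusted p = 0.0595) and no overlap, and CD44 had 0 counts in every library. The part of these marker genes in the Polycomb values was not tested. Of 5 markers of other cell types, CD3E was at 0 and PTPRC was highest, at 1.19 to 2.07 CPM.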

How the data were processed

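The 6 RNA libraries, 3 control and 3 MYCN-induced, were grouped by their titles. The authors deposited estimated counts, read pairs per gene over exons of GRCh38 from unique alignments, with pairs that overlap several genes shared in fractions. The header names featureCounts 1.6.4 without a strand option, while the submitters' processing notes name STAR 2.7.1a and featureCounts 1.5.1, and the study's methods give a strand option, so genes overlapping on opposite strands are uncertain. Of 60651 identifiers, 99.65% matched GENCODE release 44, which gave the names. Between 31.9% and 33.4% of values above 0 were not whole.

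Counts were rounded. The quasi-likelihood test of edgeR 4.0.16 (R 4.3.3) was applied after TMM normalization to the 29086 genes that reached 10 counts in 3 or more libraries, with Benjamini-Hochberg adjustment at 0.05 over all genes. CPM are TMM-normalized. The standard error is the log2 fold change divided by the square root of F. Paralog ratios were compared by two-sided exact permutation. The tests were checked on simulated counts. Alternatives were library size only, upper quartile, DESeq2 1.42.0, no filter, at least 100 counts in every library, a replicate block, leaving out each library, adding readthrough counts and, chosen after seeing the data, a GC correction by lowess with a span of 0.3.

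The members, lists and tests were chosen with earlier results of these data known. Named genes are all members, list genes past the threshold, the largest change in each list with a mean of at least 1 CPM, paralogs in ratios, EZH2-repressed genes and cell cycle inhibitors, MYCN, MKI67, PCNA, genes overlapping a member and the 5 genes most like EZH2. TOP2A, FOXK1, AEBP2, RYBP, YAF2, SUZ12P1, EPOP and EZHIP were added after their values were seen, and marker genes come from fixed lists. Some genes that these rules take are not reported here. Between replicates the chi-square per gene was 12.1 to 145.6, above sampling noise. The labels do not say whether the replicates are separate cultures, while the study describes them as 3 biologically independent experiments. The p-values measure the spread between these libraries. The biological coefficient of variation was 0.153, and this spread, not counting noise, set the precision. Circular RNA was not analysed here.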

Additional observations from a re-analysis of the deposited data

How the results depend on the processing

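Of the 10 members, 1 (BMI1) passed the test without MYCN-induced replicate 3 and 0 under each of the other 12 alternatives, so that leaving out 1 library gave 0 to 1. Over all 29086 genes tested, 2329 were called without induced replicate 3, and 113 to 477 in the other fits that left out 1 library. The 53 other Polycomb genes gave 1 call (FOXK1, higher) with upper-quartile normalization, with no count filter, with DESeq2 and with the GC correction, and 0 to 2 when a library was left out, the 2 without induced replicate 3 being AEBP2 and PCGF6. Over all genes, upper-quartile normalization called 1021 of 29086, no count filter 1281 of 45073, DESeq2 2103 of 29073 and GC correction 1474 of 29002. EZH1, SUZ12, JARID2, RNF2 and BMI1 kept their direction in all alternatives run. EZH2 was at 0.001 with DESeq2 and at -0.091 to 0.12 when a library was left out, EED at -0.145 to 0.147, CBX2 at -0.026 to 0.173, CBX8 at -0.149 to 0.103 and BMI1 at 0.096 to 0.271. RING1 was at 0.01 with no count filter, 0.012 with DESeq2 and -0.104 to 0.132 when a library was left out. CASZ1 ranged from -0.294 to 0.262, PCNA from -0.124 to 0.329 and the log2 difference in the RNF2 to RING1 ratio from -0.133 to 0.241. The cause of these changes was not tested. NGFR passed the test with no count filter, with DESeq2 and without induced replicate 3.

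Deviations of libraries with the same replicate number correlated at 0.207, -0.02 and 0.072, so the numbers were not taken to pair the libraries. With the replicate block, 265 genes were called higher and 575 lower, against 298 and 692 without it, 0 members passed and 2 of the other Polycomb genes did, FOXK1 among them. BMI1 had a log2 fold change of 0.167 with the block. The sign-flip test within replicate numbers cannot give a p below 0.25. Calls over all genes ran from 113 without control replicate 2 to 2329 without induced replicate 3.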

Other observations

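RYBP, a subunit of variant PRC1, had low levels, at 0.296, 0.384 and 0.345 CPM in the controls and 0.231, 0.15 and 0.201 CPM after induction. The groups did not overlap, and its log2 fold change was -0.83 (SE 0.255, adjusted p = 0.1332). Its paralog YAF2, which takes the same place in the complex, had 22.5 to 27.03 CPM over the 6 libraries and a log2 fold change of 0.09 (SE 0.089).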
